A study of Homo sapiens with 2 samples.

Results

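The strongest promoter peak of every protein-coding gene on chromosome 1 was followed along both arms in CAMA-1, an epithelial cell line from a human breast adenocarcinoma. Open chromatin had been profiled by ATAC-seq, in which the Tn5 transposase cuts and tags accessible DNA for sequencing, with 2 biological replicates of 50000 cultured cells each. The cells were from long-term passages, grown in medium with serum, with no treatment given in the labels. Both libraries belong to a single condition, so no groups were compared and no test was made. Of 2061 protein-coding genes of GENCODE release 44 on chromosome 1, 1685 in replicate 1 and 1693 in replicate 2 had a peak within 1 kb of any annotated transcription start site (TSS). A gene with such a peak in both replicates is a member here, and there were 1658 of them. They stood among 15890 such genes of the 20033 in the whole genome. The peak of each gene was chosen by its deposited fold enrichment, the largest value being taken, so all heights below are descriptions of peaks selected on height.

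Active promoters are usually free of nucleosomes just upstream of the start site. Promoters rich in CpG dinucleotides, which serve most broadly expressed genes, tend to be open in most cell types, whereas CpG-poor promoters more often open in particular tissues. The height of a peak is the number of reads stacked at its highest base, and reads from all copies of a locus in the cell fall on the same stack. Accessibility per copy and the number of copies therefore cannot be told apart from peak heights alone, and no copy-number data were used here. CAMA-1 shares with many breast cancers an epithelial, luminal character, and all 9 luminal markers examined genome-wide (among them KRT8, GATA3, FOXA1 and ELF3) had a TSS peak in both replicates. Of the markers of other cell types, 1 of 5 for blood had a peak in both replicates, as did 3 of 3 for fibroblasts and 2 of 3 for endothelium. PTPRC, the blood marker on 1q, had none. Such a peak was common, being found at 80.5% of the genes of chromosomes 2 to 22. In replicate 1 the luminal markers spanned 135 to 982 reads and the fibroblast markers 75 to 318. The endothelial markers with a peak spanned 122 to 264, so the ranges overlapped.

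The promoters of 5 genes are shown because the description turns on them. PSMA5, a proteasome subunit, carried the highest promoter peak of chromosome 1, and EDEM3, which trims sugars from glycoproteins bound for degradation, carried the highest on 1q. PSMB2 is another proteasome subunit, located on the distal part of 1p where peaks were low. ZNF326 and ZNF644, both zinc finger genes, are the genes nearest to the bin boundary on 1p at which heights shifted. The sequences are those of RefSeq on GRCh38.p14, from 250 bases before to 50 bases after the annotated start, and each lay wholly under the gene's peak in both replicates. Capitals mark the GC box (GGGCGG), the CCAAT box (CCAAT) and the core of the ETS site (CGGAAG), on either strand. PSMA5 lies at chr1:109426399-109426698 on the reverse strand, PSMB2 at chr1:35641477-35641776 (reverse), EDEM3 at chr1:184754809-184755108 (reverse), ZNF326 at chr1:89994860-89995159 (forward) and ZNF644 at chr1:91021434-91021733 (reverse).
PSMA5: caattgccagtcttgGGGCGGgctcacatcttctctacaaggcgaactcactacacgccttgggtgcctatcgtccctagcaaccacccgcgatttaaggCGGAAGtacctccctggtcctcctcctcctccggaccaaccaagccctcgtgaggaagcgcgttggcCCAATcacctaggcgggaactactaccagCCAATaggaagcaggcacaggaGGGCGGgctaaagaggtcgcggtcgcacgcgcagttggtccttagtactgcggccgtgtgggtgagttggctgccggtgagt
PSMB2: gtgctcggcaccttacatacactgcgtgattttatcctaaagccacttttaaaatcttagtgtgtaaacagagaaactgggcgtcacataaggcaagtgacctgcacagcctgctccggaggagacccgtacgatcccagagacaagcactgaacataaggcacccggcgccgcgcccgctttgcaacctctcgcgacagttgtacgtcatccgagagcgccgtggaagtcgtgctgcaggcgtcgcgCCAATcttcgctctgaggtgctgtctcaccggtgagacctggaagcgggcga
EDEM3: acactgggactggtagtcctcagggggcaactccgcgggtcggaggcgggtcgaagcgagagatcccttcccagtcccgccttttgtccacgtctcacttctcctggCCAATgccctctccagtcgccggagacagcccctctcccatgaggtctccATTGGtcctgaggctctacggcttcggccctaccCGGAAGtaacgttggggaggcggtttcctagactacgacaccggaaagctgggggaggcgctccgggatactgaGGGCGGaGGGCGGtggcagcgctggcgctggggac
ZNF326: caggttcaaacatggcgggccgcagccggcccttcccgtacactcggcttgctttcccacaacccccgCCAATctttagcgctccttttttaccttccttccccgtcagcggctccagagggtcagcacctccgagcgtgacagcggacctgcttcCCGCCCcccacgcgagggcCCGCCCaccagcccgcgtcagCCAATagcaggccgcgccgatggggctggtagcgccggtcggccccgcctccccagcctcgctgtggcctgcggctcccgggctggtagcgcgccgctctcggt
ZNF644: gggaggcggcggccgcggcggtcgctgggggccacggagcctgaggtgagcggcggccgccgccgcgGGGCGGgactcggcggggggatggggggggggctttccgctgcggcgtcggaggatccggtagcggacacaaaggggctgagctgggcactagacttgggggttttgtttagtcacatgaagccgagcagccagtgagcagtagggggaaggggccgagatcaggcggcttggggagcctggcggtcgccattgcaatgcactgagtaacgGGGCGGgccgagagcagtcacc

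The peak of PSMA5 was 1503 reads high in replicate 1 and 1598 in replicate 2, and that of PSMB2 was 201 and 247 reads high (values are given in this order throughout). EDEM3 reached 1448 and 1444. Both tall promoters held 2 GC boxes, 2 CCAAT boxes and 1 ETS core, and PSMB2 held 1 CCAAT box and no GC box or ETS core. ZNF326, with 2 GC boxes and 2 CCAAT boxes, had heights of 256 and 277, and ZNF644, with 2 GC boxes, had heights of 671 and 692. All 5 promoters were CpG-rich, with observed to expected CpG ratios from 0.720 in EDEM3 to 1.04 in PSMB2. Matches are descriptions of letters and not of bound factors.

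A peak at the TSS was found in both replicates for 80.4% of the genes of chromosome 1 (1658 of 2061). On chromosomes 2 to 22 the share was 80.5%. The 95% Wilson interval for chromosome 1 was 78.7 to 82.1%. It treats genes as independent draws, which those sharing a peak are not, and does not measure spread between replicates. The share was 84.6% on 1p (912 of 1078 genes) and 75.9% on 1q (746 of 983). A further 62 genes had a peak in a single replicate and 341 had none. Families that are silent in most tissues made up part of the latter. Of 65 olfactory receptor genes, 60 had no peak in either replicate, as did all 26 genes of the PRAME family, a germline gene family, and all 5 amylase genes. Why these genes lacked a peak was not tested. At the edge of the window, the peak of GJA4, a gap junction gene, lay 983 bp (replicate 1) and 988 bp (replicate 2) from a start site and was counted with heights of 32 and 34, whereas the peaks of SLC35F3 at 1003 bp (142, replicate 1) and of MYOG at 1001 bp (21, replicate 2) were not.

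The replicates ranked these promoters almost identically. Across the 1658 genes the heights had a Spearman correlation of 0.987, as a description across genes of the same chromosome. Relative to the median of chromosomes 2 to 22 in the same replicate, which was 222 and 239 stacked reads, the median difference per gene was 0.10 on the log2 scale, and 27 genes (1.63%) differed 1.5 times or more. Because neighbouring genes can share a promoter, the 1685 genes of replicate 1 rested on 1512 distinct peaks and the 1693 of replicate 2 on 1523. Counting error depends on height: the exact Poisson 95% interval is 81.4 to 122 for a stack of 100 reads and 362 to 441 for a stack of 400, and it covers counting error only. Read depth was not used.

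The median promoter peak of chromosome 1 was 245 stacked reads in the first replicate and 255 in the second, which is 1.09 ± 0.0259 (SD, n = 2) times the median of chromosomes 2 to 22. This value was a mixture of arms. Medians were 210 and 220 on 1p, 0.932 ± 0.0164 times those of the other autosomes, and 324 and 350 on 1q, 1.46 ± 0.00352 times. The ratio of 1q to 1p was 1.55 in replicate 1 and 1.59 in replicate 2 (1.57 ± 0.0314, SD, n = 2). Among 39 autosomal arms with at least 20 such genes, 1q ranked 2 in both replicates, after 8q (326 and 359) and before 6p (322 and 348), and 1p ranked 25 and 26. The 3 arms lay close together, and whether they differ was not tested.

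**Figure D1:**
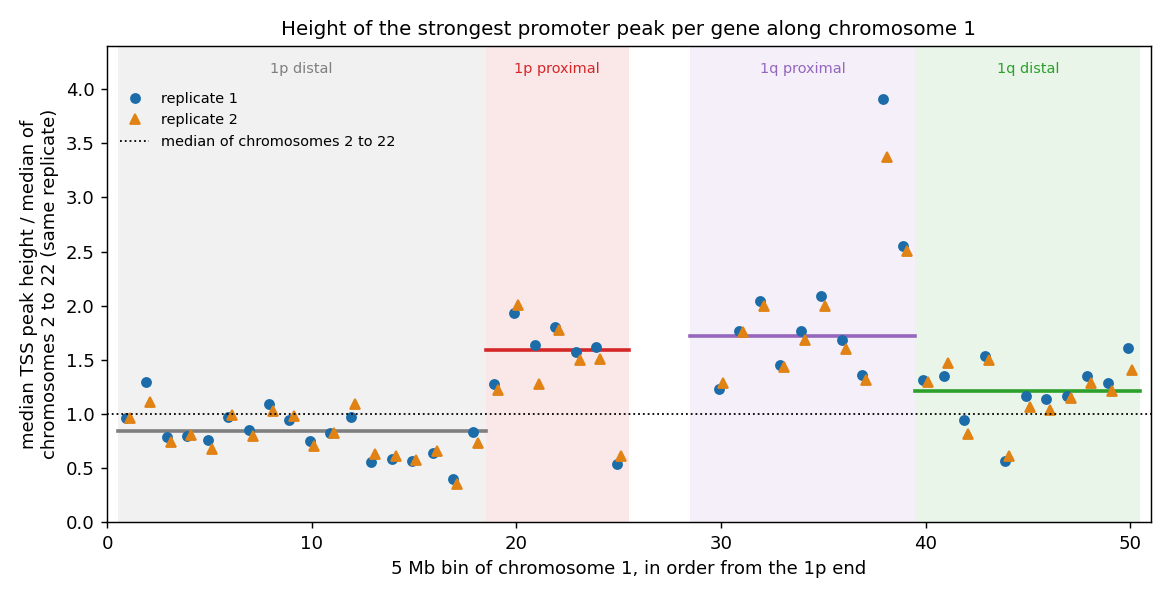
Median height of the strongest TSS peak per gene in the 46 bins of 5 Mb with at least 5 such genes, divided by the median of chromosomes 2 to 22 in the same replicate, by bin in order from the 1p end; circles are replicate 1, triangles replicate 2, the dotted line is the median of the other autosomes and the coloured bars are the mean relative medians of the stretches. Relative medians stand at 0.845 in 1p distal, 1.59 in 1p proximal, 1.72 in 1q proximal and 1.21 in 1q distal.

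Chromosome 1 was then divided into fixed bins of 5 Mb from position 0. A bin was used when at least 5 of its genes had a TSS peak in each replicate, which left 46 bins. Bin medians correlated between the replicates (r = 0.987, rho = 0.983, n = 46 bins), and 43 of 44 changes between neighbouring bins had the same sign in both. For each arm the bin boundary was sought that best divided the gene heights into a left and a right level. On 1p this boundary lay at 90 Mb in both replicates. The median left of it was 189 in the first replicate and 200 in the second, and right of it 368 and 365 stacked reads, ratios of 1.95 and 1.82 (1.88 ± 0.0895, SD, n = 2). Such a boundary exists on any arm, so its size is best read against the other arms: by the size of the ratio, 1p ranked 2 of 36 autosomal arms in both replicates, after 12q. By how far the boundary lowered the summed deviation, the measure that placed it, 1p ranked 3 in replicate 1 and 6 in replicate 2. On 1q the boundary lay at 195 Mb in both replicates, and there the median fell from 389 to 272 and from 403 to 285, ranks 10 and 11 of the 36 arms by either measure. It lowered the deviation from the medians by 2.22% in replicate 1 and 1.73% in replicate 2, beside 3.69% and 3.01% for the boundary on 1p. In replicate 1 a further boundary at 60 Mb on 1p lowered the deviation within its side by over 2%, the limit set for a further division but not for the first on an arm, and none did in replicate 2.

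These 4 levels were thereby described, each named by its place relative to the centromere. In 1p distal (0 to 90 Mb, 739 members) the medians were 189 and 200, or 0.845 ± 0.00880 (SD, n = 2) times the median of the other autosomes. In 1p proximal (90 to 125 Mb, 173 members) they were 368 and 365, or 1.59 ± 0.0922 times. In 1q proximal (140 to 195 Mb, 446 members) they were 389 and 402, or 1.72 ± 0.0482 times, and in 1q distal (195 to 249 Mb, 300 members) 272 and 285, or 1.21 ± 0.0232 times. Over all promoters together, the stretches that flank the centromere differed least, 1p proximal standing at 0.926 ± 0.0277 times 1q proximal (SD, n = 2). For promoters that were not CpG-rich, described below, this did not hold. The long distal stretch of 1p stood lowest. The bins hold the same heights and describe the levels in more detail. In all, 11 bins, or 23.9% of 46, lay at 1.5 times the median of the other autosomes or more in both replicates, against 8.00% of the bins of chromosomes 2 to 22. They comprised 4 of the 7 bins of 1p proximal and 7 of the 10 of 1q proximal, with none of the 18 in 1p distal and none of the 11 in 1q distal. A further 7 bins (15.2%) lay at or below 1/1.5 of that median, against 11.4%, and 5 of them were in 1p distal.

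The same gene heights, which set the boundaries and so are no separate evidence of them, can be described by their tails. Of the members on chromosome 1, 330 (19.9%) stood at 2 times the median of the other autosomes or more in both replicates, beside 12.9% of the genes of chromosomes 2 to 22. The share was 3.65% in 1p distal (27 genes), 35.8% in 1p proximal (62), 42.2% in 1q proximal (188) and 17.7% in 1q distal (53). Genes at 0.5 times the median or less made up 24.4%, 17.9%, 21.3% and 17.7% of the same stretches, beside 21.4% on chromosomes 2 to 22. In 1q proximal the upper tail was therefore enlarged while the lower tail was close to that of the other autosomes.

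The stretches beside the centromere, which the gene heights themselves placed, held 173 of the 912 members of 1p and 446 of the 746 of 1q. All 10 of the tallest promoters, 5 per arm, lay in them. On 1p these were PSMA5, followed by RHOC, a small GTPase of cell motility (1304 and 1374), CELSR2, an adhesion receptor of planar cell polarity (1282 and 1316), WNT2B, a secreted WNT ligand (1065 and 1238), and VTCN1, an inhibitory ligand of T cells also called B7-H4 (1025 and 1104). On 1q they were EDEM3, CRTC2, a coactivator of CREB (1342 and 1416), ZNF687, a zinc finger gene (1368 and 1359), INTS3, a subunit of the Integrator complex (1248 and 1342), and F11R, a tight junction adhesion molecule (1320 and 1310). The peak of CELSR2 began at position 109262863 and lay at an internal start site, the most 5′ one being at 109249539. Peaks at internal start sites also gave the heights of other genes named below, among them NFIA, PTGFR, ADGRL2, DPYD, NOTCH2 and NIBAN1. The same held for BCL9, TP73, CHD5, CASZ1, RPL22 and GRHL3, and for ELF3 in replicate 2. Such a peak can lie away from the start that places the gene in its bin. At the other extreme, among the low members of 1p were CNR2, a cannabinoid receptor (16 and 14), MCOLN3, an endolysosomal channel (18 and 16), and EPHB2, an ephrin receptor (22 and 16). On 1q they included RD3, a retinal gene (14 and 16), ADCY10, the soluble adenylyl cyclase (16 and 14), and SLAMF7, a receptor of immune cells (20 and 13). These low values were close to the lowest height in the lists for chromosome 1, which was 11.

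Neighbouring bins were compared next. A step was counted where the medians of adjoining bins of an arm differed 1.5 times or more in the same direction in both replicates. There were 11 steps among 44 pairs (25%), and the same rule gave 25.9% of 417 pairs on chromosomes 2 to 22, so steps were not more frequent on chromosome 1. They lay at 60, 80, 85, 90, 95 and 120 Mb on 1p and at 185, 195, 210, 215 and 220 Mb on 1q, 6 upward and 5 downward along the chromosome. In 9 of the 11 (81.8%), at least 1 of the bins held fewer than 20 genes with a peak in replicate 1, beside 10 of the 33 other pairs (30.3%). The number of genes moved with the steps, and its part in them was not tested.

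The lowest bin of the chromosome, from 80 to 85 Mb, had medians of 89.0 and 84.5 stacked reads over 11 genes in replicate 1. Near its median lay TTLL7, a tubulin ligase (89 and 99), ADGRL2, an adhesion receptor (98 and 81), and SAMD13 (60 and 88). The values of TTLL7 belong to different peaks, beginning at 83998559 in replicate 1 and at 83882901 in replicate 2. Heights then rose over 3 steps in succession, to 184 and 174 from 85 to 90 Mb, to 284 and 292 from 90 to 95 Mb and to 428 and 481 from 95 to 100 Mb, the highest bin of 1p. In that bin RWDD3 (507 and 535), PTBP2, a splicing regulator (456 and 483), and DPYD, which degrades pyrimidines (401 and 479), lay nearest to the median. The genes that met at the boundaries did not always follow the bins. At 85 Mb, MCOLN2 (46 and 52) and MCOLN3 (18 and 16) were both low, and at 95 Mb, CNN3, an actin-binding gene (516 and 567), and ALG14, a glycosylation gene (536 and 540), were both high.

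The boundary at 90 Mb was a bin edge, and the genes beside it placed the shift farther in. ZNF326 and ZNF644 differed by more than their replicates did, but the genes after ZNF644 were low again. They were CDC7, a kinase of replication origins (65 and 67), TGFBR3, a coreceptor of TGF-beta (108 and 139), EPHX4 (56 and 70), BTBD8 (80 and 70), GLMN and RPAP2, which share a peak (196 and 220), and GFI1, a repressor in blood development (19 and 29). The 8 members to the left of 90 Mb had medians of 116 and 108, and the 8 to its right had medians of 94.0 and 104. With the division allowed between any neighbouring genes, a choice made after the bin values were seen, it fell between GFI1, with its start at 92.5 Mb, and EVI5, at 92.8 Mb, in both replicates, with ratios of 2.04 and 1.93.

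The first 8 members from EVI5 onward were near the median of the other autosomes or above it. EVI5, a regulator of Rab GTPases, had heights of 611 and 637, RPL5, a protein of the large ribosomal subunit, 396 and 432, and DIPK1A 284 and 304. MTF2, a Polycomb-associated protein, had heights of 205 and 223, CCDC18 and TMED5, on a shared peak, 621 and 717, DR1, a repressor of transcription, 242 and 257, and FNBP1L 638 and 697. The lowest of these 8, MTF2, was exceeded in both replicates by a single gene of the 8 to the left, ZNF644, although GLMN and RPAP2 came close to it. The 8 members left of this division, ZNF644 to GFI1, had medians of 94.0 and 104, and the 8 right of it had medians of 504 and 534. Over 30 members on each side the medians were 196 and 186 on the left and 398.5 and 440 on the right. These same heights placed the division, so the contrast across it is no separate evidence of its position. When only CpG-rich promoters were used the division fell between the same genes in both replicates (ratios 1.99 and 2.0), and with the other promoters alone it fell between BTBD8 and DIPK1A, at 92.1 and 93 Mb. Each class is a part of the same genes.

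**Figure D2:**
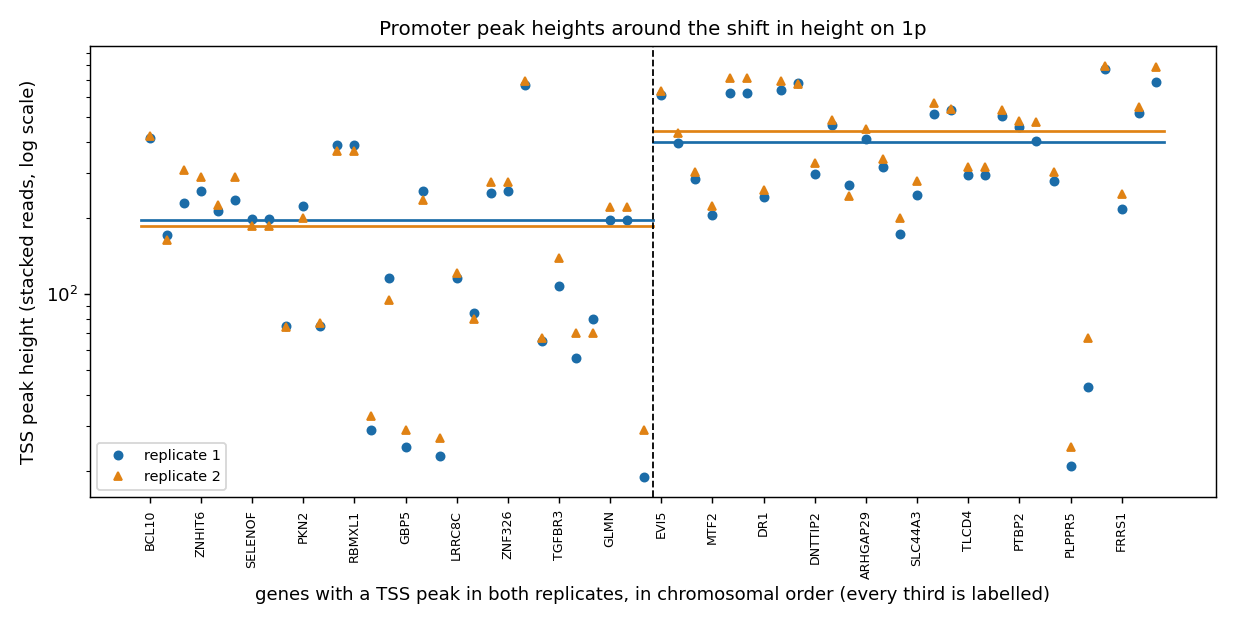
Height of the TSS peak (stacked reads, log axis) of 30 members on each side of the division between GFI1 and EVI5, in chromosomal order; circles are replicate 1, triangles replicate 2, horizontal lines are the medians of each side and the dashed line is the division. Medians are 196 and 186 on the left and 398.5 and 440 on the right, with tall exceptions on the left such as ZNF644 and low ones on the right.

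Near the centromere the level of 1p fell again in a single bin. From 120 to 125 Mb the medians were 119 and 146 over 7 genes, against 360 and 362 in the bin before. Of these genes, SEC22B, a vesicle trafficking gene, had heights of 504 and 560 and SRGAP2C and FAM72B shared a peak of 442 and 402. NOTCH2, a receptor (45 and 43), NBPF8 (119 and 146), and NOTCH2NLR and NBPF26, on a shared peak of 21 and 21, were low. Most of these genes have near-identical copies elsewhere on chromosome 1, between which the authors' alignment could have divided reads, so their heights are uncertain. The nearest member to the left, REG4, a secreted lectin of the gut, had heights of 180 and 197.

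On 1q, the highest bin of the whole chromosome lay from 185 to 190 Mb, with medians of 867 and 806 over 7 genes, after 302 and 312 in the bin before. The values came from few promoters. TPR, a nuclear pore protein, and ODR4 shared a peak of 867 and 806, and SWT1 and TRMT1L, which modifies transfer RNA, shared a peak of 1059 and 1083. IVNS1ABP had heights of 469 and 493, RNF2, a catalytic subunit of Polycomb complex 1, 275 and 337, and HMCN1, an extracellular matrix gene, 159 and 150. In the next bin, to 195 Mb, medians were 566 and 601, again over 7 genes. There RO60 and UCHL5 shared a peak of 947 and 955, CDC73, a tumor suppressor of the parathyroid, had heights of 710 and 685, and GLRX2, a mitochondrial glutaredoxin, had heights of 566 and 601. B3GALT2, a glycosyltransferase and the last member before the boundary, had heights of 46 and 58.

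Beyond 195 Mb promoters were lower, among them ASPM, a spindle gene (445 and 503), ZBTB41 (298 and 327) and DENND1B (240 and 275). The 8 members to the left of the boundary had medians of 638 and 643 and the 8 to its right 304 and 324. Between neighbouring genes the best division fell between CDC73 and B3GALT2, both near 193 Mb, in both replicates (ratios of right to left 0.698 and 0.705). For CpG-rich promoters alone it fell between ASPM and DENND1B, near 197 and 198 Mb (0.623 and 0.608). For the other promoters it lay elsewhere on the arm, near 152 Mb in replicate 1 and 157 Mb in replicate 2. The heights compared across these divisions are again those that placed them.

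Of the 3 steps within 1q distal, those at 215 and 220 Mb bounded a thin bin. This lowest bin of 1q, from 215 to 220 Mb, had medians of 126 and 146 over 9 genes, among them TGFB2, a growth factor (108 and 113), LYPLAL1 (115 and 146) and SLC30A10, a manganese exporter (126 and 130). CENPF, a kinetochore gene just before this bin, had heights of 429 and 443, whereas KCNK2, a potassium channel just inside it, had heights of 24 and 20. EPRS1, a transfer RNA synthetase just after it, had heights of 495 and 491. At 210 Mb the medians rose from 209 to 341 and from 194 to 358, over bins of 48 and 27 genes, between SYT14, a synaptotagmin (62 and 76), and SERTAD4 (339 and 358).

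The number of peaks followed a different course from their height. On 1p, the 9 bins up to 45 Mb held 718 to 982 peaks in replicate 1 and 730 to 1050 in replicate 2. The count fell to 401 and 422 from 45 to 50 Mb, and from 55 to 90 Mb bins held 88 to 247 and 98 to 273 peaks. Heights did not fall with the counts at 45 Mb by as much as a step: the medians were 210 and 235 before it and 166 and 169 after it. At 90 Mb the count and the height rose together, from 232 to 718 and from 245 to 723 peaks, but at 95 Mb the count fell to 309 and 360 while the median height rose to its highest value on the arm. The bin with the most peaks, from 150 to 155 Mb, had 1308 and 1272 peaks and medians of 393 and 421, and the bin with the tallest promoters, from 185 to 190 Mb, had 274 and 319 peaks. At 5 of the 11 steps the peak count changed in the same direction as the promoter height in both replicates.

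**Figure D3:**
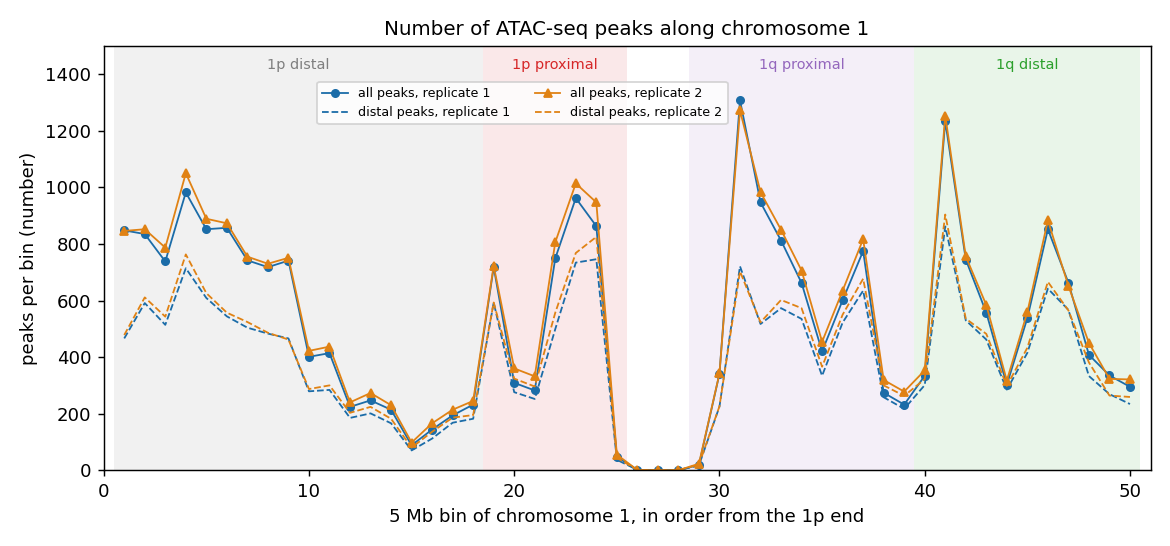
Number of peaks in each 5 Mb bin of chromosome 1, by bin in order from the 1p end; solid lines are all peaks, dashed lines are peaks more than 3 kb from any protein-coding TSS, and colours mark the replicates. Counts are highest in the bin with 1308 and 1272 peaks in 1q proximal and lie between 88 and 273 from bin 12 to bin 18 at the end of 1p distal.

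Across the 46 bins, the median promoter height correlated weakly with the number of peaks, with r = 0.112 and rho = 0.287 in replicate 1 and r = 0.154 and rho = 0.338 in replicate 2. When only peaks with a −log10 q of 10 or more were used, rho was 0.08 in both. With the number of protein-coding genes per bin, rho was 0.066 and 0.074. The bins share their library and neighbours are not independent, so these values are descriptions without a p-value. The densities of the stretches differed less than the heights did. All peaks per Mb in 1p proximal were 1.09 ± 0.0268 (SD, n = 2) times those in 1p distal, where the median height was 1.88 times. In 1q proximal they were 1.07 ± 0.0109 times those in 1q distal, where the height was 1.42 ± 0.0126 times.

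**Figure D4:**
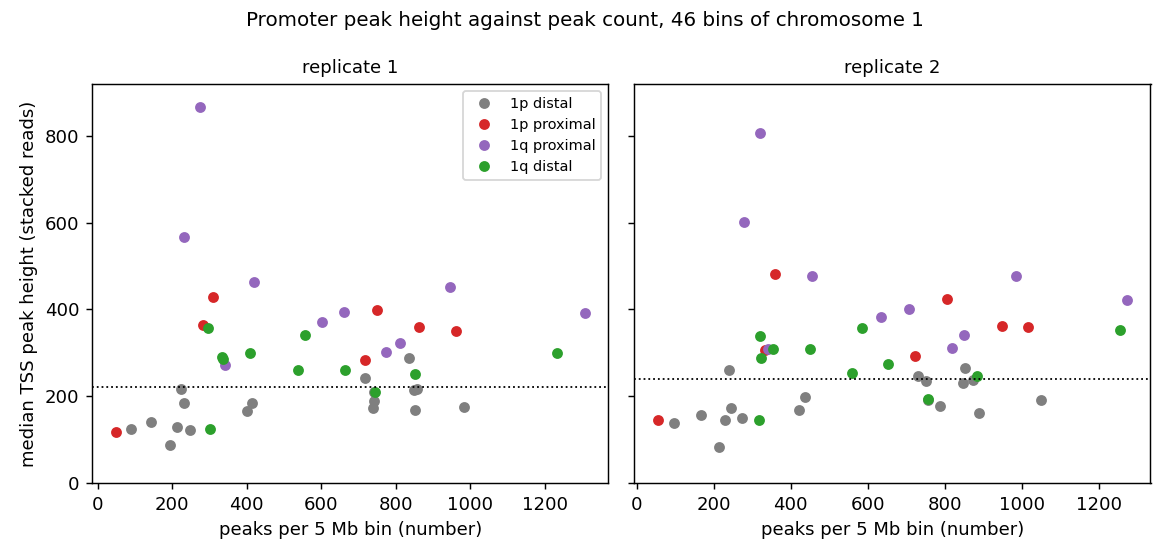
Median TSS peak height (stacked reads) against the number of peaks in each of the 46 bins, by replicate and coloured by stretch; the dotted line is the median of chromosomes 2 to 22, at 222 and 239. Bins of 1p distal lie mostly under the line at any peak count, and the 10 bins of 1q proximal lie above it.

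Peaks more than 3 kb from every protein-coding TSS, which were not used to choose the members, differed less between the stretches than the promoters did. Their median height was 35.0 in both replicates in 1p distal, 31.0 in both in 1p proximal, 30 in both in 1q proximal, and 34.0 and 35.0 in 1q distal. The medians were thus lower in the stretches where promoters were taller, by factors of 0.886 on 1p and 0.870 ± 0.0178 (SD, n = 2) on 1q. Across bins they correlated negatively with the promoter medians (rho = -0.524 and -0.567, r = -0.414 and -0.548, n = 46). These medians depend on how many weak peaks passed the threshold of the peak caller, and the distal peaks per Mb were 1.26 ± 0.0329 times as many in 1p proximal as in 1p distal. Their 90th percentile, which depends less on weak peaks, was 156 and 161 in 1p distal, 176 and 176 in 1p proximal, 170 and 174 in 1q proximal and 173 and 175 in 1q distal. Across bins it correlated weakly and positively with the promoter medians (rho = 0.305 and 0.335, r = 0.109 and 0.128, n = 46). Its ratio was 1.11 ± 0.0248 for 1p proximal to 1p distal and 0.988 ± 0.00822 for 1q proximal to 1q distal. Distal peaks of at least 100 stacked reads numbered 14 and 14.9 per Mb in 1p distal, 15.9 and 17.4 in 1p proximal, 16.4 and 17.2 in 1q proximal and 18 and 19 in 1q distal. The height that 10 distal peaks per Mb reached or exceeded was 128 and 135 in 1p distal, 156 and 172 in 1p proximal, 154 and 166 in 1q proximal and 162 and 170 in 1q distal, so on this measure 1p distal stood lowest as it did for promoters. At 4 of the 11 steps the 90th percentile changed in the same direction as the promoter height in both replicates.

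Promoter composition differed between the stretches. Of the members with a RefSeq promoter (1389 of 1658, 83.8%), those with an observed to expected CpG ratio of at least 0.6, here called CpG-rich, made up 74.3% in 1p distal, 65.8% in 1p proximal, 59.8% in 1q proximal and 68.6% in 1q distal. CpG-rich promoters had taller peaks than the others on chromosomes 2 to 22, with medians of 248 and 267 against 153 and 160, so the tall stretches were those with fewer promoters of the taller class. Set against their own class on the other autosomes, CpG-rich promoters stood at 0.858 ± 0.0159 times in 1p distal, 1.61 ± 0.00965 in 1p proximal, 1.91 ± 0.0213 in 1q proximal and 1.18 ± 0.0192 in 1q distal. The other promoters stood at 0.873 ± 0.0321, 1.64 ± 0.0384, 0.927 ± 0.0293 and 1.32 ± 0.0442 times (SD, n = 2 throughout). On 1p the classes shifted alike. On 1q they did not. The ratio of 1q proximal to 1q distal was 1.61 ± 0.00816 for CpG-rich promoters and 0.700 ± 0.00119 for the others, the opposite direction. The ratio of 1p proximal to 1q proximal was 0.842 ± 0.00434 for CpG-rich promoters and 1.77 ± 0.0975 for the others. The pooled ratio of 0.926 thus joined classes that differed in opposite directions.

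**Figure D5:**
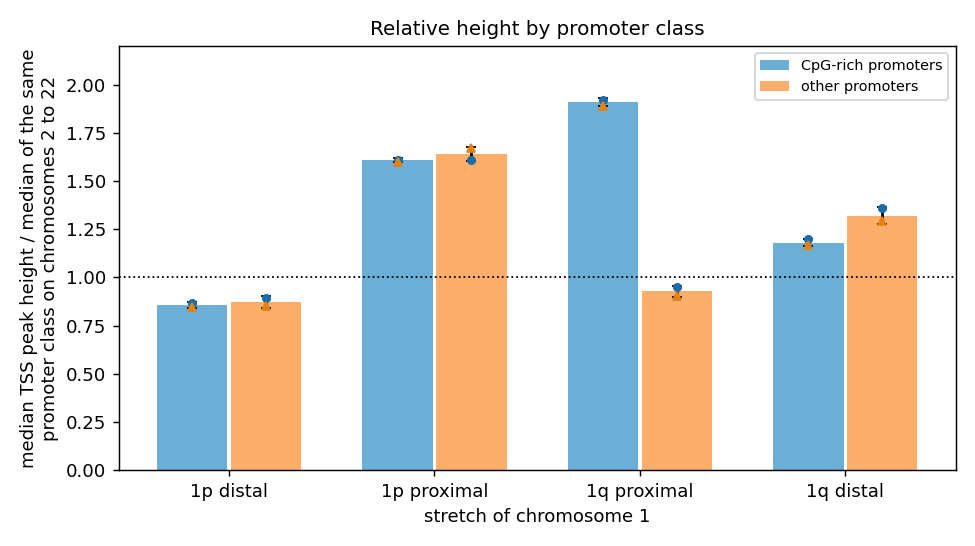
Median TSS peak height of CpG-rich and other promoters in each stretch, divided by the median of the same class on chromosomes 2 to 22; bars are means and error bars SDs of the 2 replicates (circles replicate 1, triangles replicate 2), and the dotted line is 1. CpG-rich promoters reach 1.91 in 1q proximal, where the other promoters stand at 0.927.

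The other promoters of 1q proximal, 150 members with medians of 145 in both replicates, included clustered families of skin, sense and immune genes. In a division made after their values were seen, the 31 members in the S100, cornified envelope, olfactory receptor and Fc receptor families had medians of 46 and 51, and the 119 remaining had medians of 202 and 227. Since low families were set apart on this stretch only, these medians are not comparable with those of other stretches or chromosomes. Motifs were searched in the promoters of the members of each stretch, given from the end of 1p to the end of 1q. The GC box was present in 64.9%, 59.1%, 57.6% and 60.8% of them. It was in 57.4% of all 15366 protein-coding promoters matched, whether or not the gene had a peak. Members all had a peak, so their shares and those of all promoters are not like for like. The CCAAT box was in 39.1%, 37.6%, 40.2% and 36.1% (36.1% of all), the ETS core in 28.8%, 28.2%, 25.5% and 29.0% (25%), and the TATA box (TATAAA) in 5.88%, 8.72%, 10.2% and 9.02% (10.2%). Matches were counted on both strands and could overlap. The share with a GC box was lower the higher the stretch stood, and the other motif shares did not follow that order. The CpG-rich share and the median GC content of these promoters (65.7%, 61.7%, 60.0% and 63.3%) did follow it. The GC box was not told apart from composition, and the heights themselves had placed the stretches.

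All 16 genes of 1q known for gain or activity in breast and other cancers were members, beside 75.9% of the genes of 1q. Their medians were 386 and 378. Of the 16, 5 stood at 2 times the median of the other autosomes or more. The share of all members on 1q was 32.3% (241 of 746). In 1q proximal, CKS1B, a subunit of cyclin-dependent kinase complexes, had heights of 1131 and 1048, and MUC1, an epithelial mucin, 944 and 918. MCL1, which blocks apoptosis, had heights of 438 and 461, SETDB1, a histone H3 lysine methyltransferase, 348 and 370, and BCL9, a coactivator of beta-catenin, 273 and 302. These 5 all lay above the medians of 222 and 239.

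In 1q distal the range was wider. ELF3, an epithelial transcription factor, had heights of 982 and 1046, in peaks of 12316 bp (replicate 1) and 5344 bp (replicate 2). Its most 5′ start is at 202007945, and the replicate 2 peak began at 202014758, at an internal start site. The replicate 1 peak spanned both, and where its highest base lay was not established. UBE2T, a ubiquitin-conjugating enzyme of DNA repair, had heights of 686 and 713. CENPF was described above. MDM4, an inhibitor of p53, had heights of 420 and 387, IKBKE, a kinase of innate immunity, 353 and 368, H3-3A, a variant histone H3, 248 and 198, and PARP1, a sensor of DNA breaks, 227 and 246. ARF1, a GTPase of vesicle traffic (94 and 106), and KDM5B, a histone demethylase (55 and 54), were low. Genes of the same 5 Mb bin could thus differ widely, as ELF3, UBE2T and KDM5B did.

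Of 16 cancer genes of 1p, 15 were members, with medians of 251 and 275, beside 84.6% of the genes of 1p. RUNX3, a transcription factor, had no peak. In 1p distal the tallest were MTOR, a growth kinase (581 and 561), and KIF1B, a kinesin (511 and 602). They alone of the list stood at 2 times the median of the other autosomes or more, beside 9.76% of all members on 1p. CHD5, a chromatin remodeler (347 and 363), CASZ1, a zinc finger factor (345 and 373), JUN, an AP-1 subunit (340 and 354), and ARID1A, a SWI/SNF subunit (282 and 288), followed. Near the median of the other autosomes lay RPL22, a ribosomal protein (251 and 266), MYCL, a MYC paralog (248 and 267), CDKN2C, a cell cycle inhibitor (237 and 275), and SDHB, a subunit of succinate dehydrogenase (233 and 216). FUBP1, a regulator of MYC (189 and 189), and TP73, a p53 relative (151 and 167), were lower. In 1p proximal, RPL5 and NOTCH2 were given above and NRAS, a RAS oncogene, had heights of 198 and 227, so RPL5 alone of these 3 lay above the medians of its stretch.

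All 17 proteasome and ribosome genes were members, beside 80.4% of the genes of chromosome 1. The highest was PSMA5 in 1p proximal and the middle MRPL37 (293 and 316) in 1p distal. MRPL37 was also the highest of the 7 in 1p distal, and the 7 in 1q proximal spanned 239 to 697 and 226 to 610 stacked reads, so the ranges overlapped. The peak of MRPL37 lay at an internal start site and was shared by 3 genes. Among 26 transcription factors 19 were members (medians 379 and 361), the highest being ELF3, the middle GRHL3, an epithelial factor (379 and 361), and the lowest ESRRG, an orphan nuclear receptor (56 and 70). RFX5, a regulator of antigen presentation (898 and 882), and LHX4, a pituitary factor (714 and 699), were also tall, and were picked after their values were seen.

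Several families are clustered, and those of 1q21 varied within short distances. Over all of 1q, 75.9% of the genes were members. Of 16 S100 genes, which encode calcium-binding proteins, 15 were members (medians 445 and 397). S100A14 and S100A16 shared a peak of 924 and 1049, S100A10 (456 and 397) lay in the middle, and S100A7A (24 and 25), of inflamed skin, was lowest. The neighbouring cornified envelope cluster, of skin differentiation genes, had 12 members of 37 with medians of 25.5 and 34.0, from LCE3D (17 and 22) over LCE3A (23 and 37) to IVL, or involucrin (232 and 259). Of 15 Fc receptor genes, 6 were members, from FCRLA (22 and 27) over FCRL5 (39 and 33) to FCRLB (366 and 362). The stretch with the tallest promoters thus also held low ones. Of the 65 olfactory receptor genes, which lie mostly in 1q distal, 4 were members, from OR14A2 (23 and 17) over OR14A16 (32 and 20) to OR13G1 (35 and 43), these 3 all in the last bin of 1q.

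Other families were smaller. Of 12 histone genes of 1q found, 6 were members, with H2BC21, H2AC20 and H2AC21 among the genes on a shared peak of 550 and 595, H2BC18 in the middle (142 and 156) and H2AC19 lowest (24 and 22). Of 14 NBPF genes, a family expanded in primates, 11 were members, from NBPF10 (18 and 18) over NBPF8 to NBPF1 (877 and 866), the last in 1p distal. The values of NBPF10 belong to different peaks, beginning at 146144585 in replicate 1 and at 146228820 in replicate 2. Both families hold near-identical copies, so these heights are uncertain too. In 1p distal, where 84.7% of the genes were members, 3 of 7 guanylate-binding proteins of the interferon response were. They were GBP5 (25 and 29), GBP3 (29 and 33) and GBP2 (116 and 95). Of 5 cytochrome P450 genes of family 4, 3 were, namely CYP4Z1 (40 and 43), CYP4A11 (74 and 96) and CYP4B1 (158 and 200). At the remaining steps on 1p, CYP2J2, another cytochrome P450 (119 and 138), and NFIA, a transcription factor (161 and 172), flanked 60 Mb, and PTGFR, a prostaglandin receptor (38 and 31), lay left of 80 Mb. At 185 Mb on 1q, NIBAN1 (432 and 403) was the last member before RNF2.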

How the data were processed

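ATAC-seq was performed on 2 biological replicates of CAMA-1. The submitters' processing notes name Trim Galore 0.6.5, a read trimmer, Bowtie2 2.3.5.1, an aligner, MACS2 2.2.6, a peak caller, and the build hg38, and each replicate has its own peak list. Per the labels, libraries were amplified for 7 to 8 PCR cycles. For each peak the authors deposited the caller's score, its fold enrichment over background (a ratio), and −log10 p and −log10 q values. Peak calling settings and duplicate removal were not established here, and the read depths that the study lists were not used. No column lacked a sample (0).

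Fold enrichments were multiples of 0.230 in replicate 1 and 0.221 in replicate 2 (to within 8.1e-05 of 1 step), from which heights in stacked reads over 1 genome-wide background of 3.35 and 3.52 were computed. Background, and hence height, scales with depth, so levels were set beside chromosomes 2 to 22 of the same replicate. All peaks of chromosome 1 lay within its 248956422 bases, and arms were divided at the longest run of N (18 Mb). A gene was placed in the bin of its most 5′ TSS. Boundaries minimised the summed absolute deviation of log2 heights from the median of each side, with at least 3 bins a side, and a further division had to lower that sum by 2%. Wilson intervals were computed at 95%. The work used matplotlib 3.10.9, scipy 1.17.1 and numpy 2.4.6 under Python 3.11.15, and functions were tested on simulated data.

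The members, bins and gene lists were chosen with earlier results of these data known. Genes named are the 5 highest per arm, those beside each step, the 3 nearest the median of the highest and lowest bins per arm, all genes of both cancer lists, the highest, middle and lowest of other lists, and those at the window edge. Other genes were named after their values were seen, among them the lowest of each arm, the genes beside the boundaries and the full content of the bins from 120, 185 and 190 Mb. Alternatives were other windows (100 bp, 3 kb), the most 5′ TSS only, a −log10 q of at least 10, each peak once, promoter classes, other bins, other step sizes and the omission of each replicate. A few genes that this rule names are not reported here, and other assays of the study were not used.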

Additional observations from a re-analysis of the deposited data

How the results depend on the processing

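Of 66 recomputed values, 41 moved by no more than the SD between the replicates or, for counts, by less than 1.5 times, 24 moved farther and 1 reversed. Leaving out either replicate cannot move a ratio or rho by more than that SD. Those values fall among the 41 by construction and say nothing about stability. The reversal was the ratio of 1q proximal to 1q distal, which was 0.700 for promoters that are not CpG-rich and 1.61 for CpG-rich ones. That ratio was 1.48 for peaks of −log10 q 10 or more (the strict peaks), 1.46 with a window of 100 bp, 1.59 with the most 5′ TSS only and 1.37 with each peak once. The ratio of 1p proximal to 1p distal was 1.73 with a window of 3 kb, 1.76 with each peak once and 1.98 when divided between neighbouring genes. The ratio of 1q to 1p was 1.60 for the strict peaks, 1.48 with a window of 3 kb, 1.66 with the most 5′ TSS only, 1.5 with each peak once, 1.72 for CpG-rich promoters and 1.07 for the others (0.991 and 1.15 in the replicates). Chromosome 1 stood at 1.12 times the other autosomes for CpG-rich promoters and at 1.05 times for the others.

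Steps numbered 5 with CpG-rich promoters only, 3 with bins of 10 Mb, 6 with at least 10 genes per bin and 4 with a step of 2 times. The rho of height with peak count was 0.08 for the strict peaks, against 0.31 for all. The rho with the 90th percentile of distal peaks was 0.42 for them, 0.45 with bins shifted by 2.5 Mb and 0.28 with bins of 10 Mb. The causes were not tested. Without either replicate, the number of genes with a peak was 1685 to 1693, the level of chromosome 1 was 1.07 to 1.10, the ratio of 1q to 1p was 1.55 to 1.59, steps numbered 13 and 13, the ratio on 1p was 1.82 to 1.95 and that on 1q 1.41 to 1.43, and the rho values were 0.29 to 0.34 and 0.31 to 0.33. The promoter classes on each arm, the CpG-rich steps and all alternatives for the levels on each arm were chosen after seeing the data. No paired analysis was possible because the 2 replicates form a single group. Read depth and copy number were not used, which limits what a height can show.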
